A study of Mus musculus with 2 samples.

Results

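The PYHIN genes were followed across the cell types of the mouse brain in single-cell RNA sequencing counts. The genes were chosen by name, and 7 of the 8 names listed (Aim2, Ifi203, Ifi204, Ifi207, Ifi209, Ifi211 and Mndal) matched a row of the 31053 genes counted. The 8th name, Pyhin1, had no row of its own; RefSeq lists it as an older name of Ifi209, which was counted. There were 2 samples, each a pool. The sorted brain held FACS-sorted cells of male wild-type (WT) and STING-KO mice of 3 and 12 months. The total brain held unsorted cells of male and female WT and STING-KO mice of 2 and 24 months by its title, although its age label reads 240 months. STING, encoded by Tmem173, is the adaptor that relays cytosolic DNA signals to interferon genes. Per the design text, 2 mice were grouped per genotype and age. Each matrix carries 4 barcode suffixes, and no label ties a suffix to an age, sex or genotype, so neither age nor genotype was compared.

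PYHIN proteins pair a pyrin domain, which binds other pyrin proteins, with a HIN domain, which binds double-stranded DNA, although some members lack the pyrin domain. AIM2 is the best known: on cytosolic DNA it recruits the adaptor ASC (encoded by Pycard) and caspase-1, and so forms an inflammasome that matures interleukin-1β. IFI204, a mouse relative of human IFI16, has been placed upstream of STING in myeloid cells. The mouse family is much larger than the human one, several of its genes were first found as interferon-inducible, and the roles of IFI203, IFI207, IFI209, IFI211 and MNDAL are less well known.

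The 7 genes lie within 591.794 kb of chromosome 1 (GRCm38, GENCODE annotation), from Aim2 at 173350879 to Ifi203 ending at 173942672. Ifi209 follows at 173630917, then Ifi207 at 173723427, Ifi204 at 173747293, Mndal at 173849126 and Ifi211 at 173896345. The Mndal annotation reaches 173942491 and so spans Ifi211 and most of Ifi203 on the same strand, but it shares only 37 exon bases with Ifi203 and 0 with Ifi211. Family members resemble each other, which bears on how reads could be assigned. Of the 90-base stretches in the last 500 bases of annotated transcripts, none of Aim2, Ifi204 or Ifi207 recurred in another gene. The share that recurred was 1.05% for Ifi203, 9.33% for Mndal, 37.1% for Ifi209 (in Ifi214) and 59.4% for Ifi211 (in Ifi205). The levels of Ifi209 and Ifi211 are therefore uncertain.

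Promoter sequence was available from RefSeq (GRCm38.p6) for 6 of the 7 genes; Ifi204 was not matched. Windows of 250 bases before to 50 after the start were searched on both strands for 2 copies of GAAA with 2 bases between them, the core of the element through which type I interferon acts. It was present in the windows of Mndal, Ifi207 and Ifi211 and in 1 of the 2 windows of Ifi203, and these letters were not in the windows of Aim2 or Ifi209. Among all 32851 promoter windows, 3.44% held it. The windows follow RefSeq starts, which can differ from the GENCODE positions above. The Aim2 window, 173420354 to 173420653, lies inside the GENCODE span, and no Aim2 window covered the GENCODE start at 173350879. The Mndal windows likewise lie inside its GENCODE span and away from the end at 173942491. TTC and GAA with 3 bases between them, a core bound by STAT factors, was in no window of these genes and in 8.30% of all windows. The stretches just before the start are shown because they set Aim2 apart from the 4 genes that carry the element, whose match is in capitals:
Ifi203: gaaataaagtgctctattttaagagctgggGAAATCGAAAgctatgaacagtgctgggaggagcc
Mndal: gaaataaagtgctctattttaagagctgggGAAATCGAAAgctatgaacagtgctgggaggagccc
Ifi207: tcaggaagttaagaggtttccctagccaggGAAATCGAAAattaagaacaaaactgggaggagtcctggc
Ifi211: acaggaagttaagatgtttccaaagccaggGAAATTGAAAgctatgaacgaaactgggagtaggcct
Aim2: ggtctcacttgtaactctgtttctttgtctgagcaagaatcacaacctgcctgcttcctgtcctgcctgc
They lie at chr1:173942493-173942557, chr1:173880188-173880253, chr1:173741811-173741880 and chr1:173913047-173913113 (minus strand) and, for Aim2, chr1:173420534-173420603 (plus strand). The element sits 26 to 32 bases before the RefSeq start in each of these 4 windows. The Mndal and Ifi203 windows were 97.6% identical over 289 aligned bases, and the Ifi207 and Ifi211 windows 88.4% identical over 294. A match is a description of the letters and does not show that a factor binds there.

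After filtering, 10076 sorted and 9367 total cells remained, with 31220601 and 33498788 UMIs (unique molecule counts) and medians of 2293.5 and 1692 UMIs per cell. The family gave 3698 sorted and 2478 total UMIs. Cells were clustered with the PYHIN genes left out and named from marker genes; names such as microglia-like were rebuilt here, and 2.53% of sorted and 3.32% of total cells stayed unnamed. Suffixes of the sorted brain shared 3 to 13 barcodes per pair, those of the total brain 0 to 4, and the 2 samples shared 0. Tmem173 itself ranged over suffixes between 2.87 and 321 CPM in sorted and between 2.59 and 294 CPM in total microglia-like cells. Levels are UMIs per 1000000 UMIs of the class (CPM) with exact 95% Poisson intervals, which cover counting error alone. With 1 pooled sample per group there is no replicate and no test. A gene was counted as higher or lower from 2-fold, after 1 CPM was added to both levels, where the 2 groups gave at least 10 UMIs. Microglia markers summed to 34579 CPM in sorted microglia-like cells, against 1181 CPM in the other cells. Markers of other classes were present too: those of the choroid plexus summed to 8951 CPM in sorted microglia-like cells, against 411123 CPM in choroid plexus epithelial-like cells. A UMI marks 1 captured transcript whatever its length, so members were set side by side on this scale. Capture and read assignment may still differ between members, and 9.33% of the Mndal stretches recurred in other genes. The levels and shares of Ifi209 and Ifi211 carry the greater uncertainty given above.

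Over the pooled cells of each sample, Aim2 was the main PYHIN gene of microglia, the brain's resident macrophages. Aim2 stood at 49.1 CPM (44.7 to 53.8) in sorted and 74.3 CPM (65.2 to 84.4) in total microglia-like cells, the highest level of any named class with at least 50 cells in either sample. It made up 67.2% of the family's UMIs in sorted and 55.1% in total microglia-like cells. By suffix, Aim2 was 56.6, 41.9, 51.0 and 43.8 CPM in the sorted brain, and 62.2, 62.1, 90.9 and 74.3 CPM in the total brain. Every suffix value of the sorted brain lay below every one of the total brain. The nearest values, 56.6 and 62.1 CPM, were close, and suffixes of a pooled sample are not replicates, so a full separation is not established. Aim2 was not the main member everywhere. In suffix 2 of the total brain Ifi204 was 124 CPM, against 62.1 CPM of Aim2. Sorted microglia-like cells with 2 or more interferon-stimulated UMIs, described below, had 172 CPM of Ifi204 and 38.9 CPM of Aim2.

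**Figure D1:**
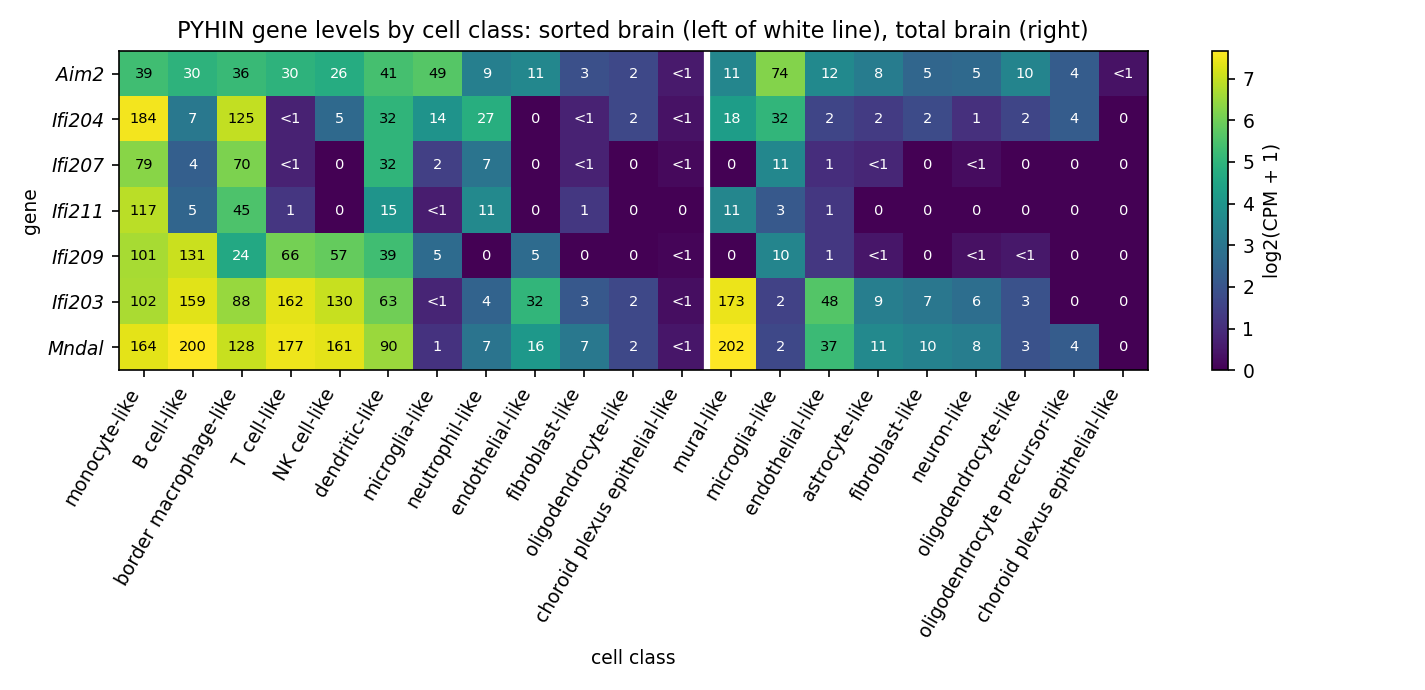
Heat map of 7 PYHIN genes (rows) by cell class (columns), sorted brain left of the white line and total brain right of it, coloured by log2(CPM + 1) with the CPM printed in each cell. Classes with at least 50 cells are ordered by the summed level of the family; Aim2 is brightest in microglia-like cells, while Ifi203 and Mndal are dark there and bright in lymphocyte-like, monocyte-like and mural-like cells.

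Other immune classes of the sorted brain came close. Dendritic-like cells had 41.4 CPM, monocyte-like 38.5, border macrophage-like 35.7, T cell-like 30.2, B cell-like 30.03 and NK cell-like 26.0, and from microglia-like cells on each interval overlapped that of the next class in this order. Endothelial-like (10.7 CPM), neutrophil-like (8.91) and fibroblast-like cells (2.69) were lower. In the total brain the non-immune classes with at least 50 cells had less Aim2 than microglia-like cells: endothelial-like cells had 11.6 CPM (9.00 to 14.7), mural-like 10.5, oligodendrocyte-like 10.1, astrocyte-like 8.40 and neuron-like 5.21. Its other immune classes held 30 cells or fewer each and cannot be placed in that order, with 53.2 CPM (17.3 to 124) in 22 B cell-like, 53.3 CPM (26.6 to 95.4) in 30 T cell-like and 65.4 CPM (29.9 to 124) in 25 border macrophage-like cells, intervals that each overlap that of microglia. The share of microglia-like cells with an Aim2 UMI, with every cell thinned to 1000 UMIs, was 4.46% in sorted and 7.75% in total brain (9.5% and 30.6% unthinned, at medians of 2029 and 4422 UMIs). Choroid plexus epithelial-like cells had 0.0406% in the sorted brain (0.242% unthinned, at a median of 4184.5 UMIs). This share does not measure the free RNA in microglia-like cells, where markers of the choroid plexus were also present.

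Ifi203 and Mndal were nearly missing from microglia. Ifi203 stood at 0.748 CPM (0.301 to 1.54) in sorted and 1.87 CPM (0.688 to 4.08) in total microglia-like cells, from 7 and 6 UMIs. Mndal stood at 1.18 CPM (0.587 to 2.10) and 2.19 CPM (0.879 to 4.5), from 11 and 7 UMIs. Neither gene passed 4 CPM in any suffix of either sample. In T cell-like cells of the sorted brain, by contrast, Ifi203 reached 162 CPM (143 to 184) and Mndal 177 CPM (157 to 199.97). The ratio of T cell-like over microglia-like cells was 217 (104 to 545) for Ifi203 and 151 (83.0 to 306) for Mndal. B cell-like cells held 159 and 199.5 CPM of these 2 genes, NK cell-like 129.8 and 161, monocyte-like 102 and 164, border macrophage-like 87.8 and 128, and dendritic-like 63.4 and 90.2.

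The lymphocyte values held in every suffix of the sorted brain. T cell-like cells had Ifi203 at 221, 130.3, 146 and 148 CPM and Mndal at 204, 154, 181 and 160.3 CPM. B cell-like cells had Ifi203 at 214, 160.4, 103 and 145 CPM and Mndal at 258, 153, 217 and 150.1 CPM. The lowest of these is still far above any suffix of microglia. T cell markers summed to 13.6 CPM in sorted microglia-like cells, against 6825 CPM in T cell-like cells, and B cell markers to 372 against 17473 CPM.

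Over the 21 points of a class in a sample with at least 50 cells, Ifi203 and Mndal had the closest levels of any pair of members (r = 0.976 for log2(CPM + 1)). The lowest correlation was between Ifi203 and Ifi207 (0.364). The points share their libraries and differ in depth, so these values only describe the patterns. The Mndal to Ifi203 ratio of UMIs ran from 0.760 (0.633 to 0.910) in endothelial-like to 1.61 (1.16 to 2.25) in monocyte-like cells, and these 2 intervals do not overlap.

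**Figure D2:**
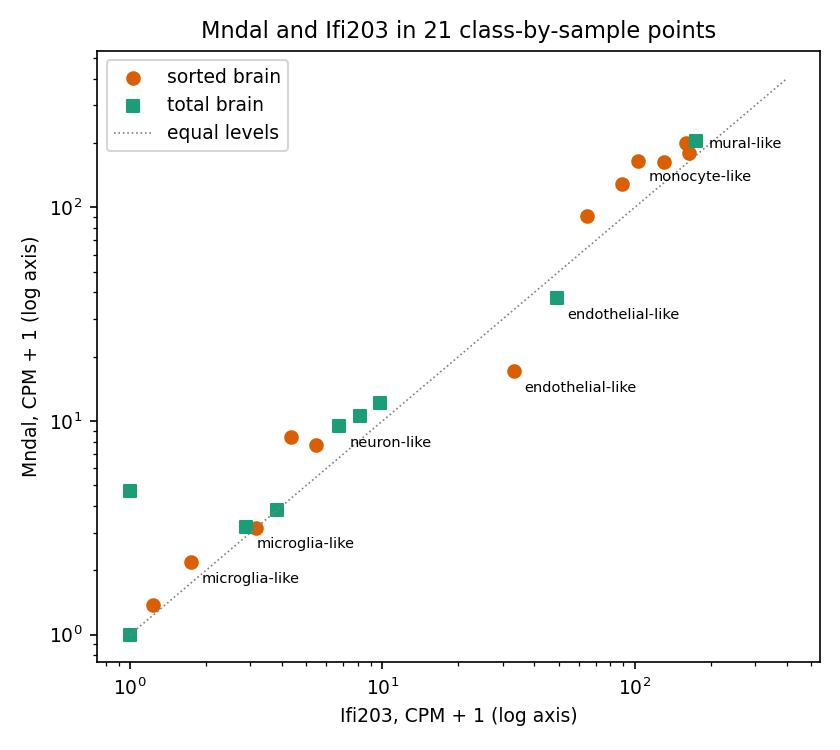
Mndal level against Ifi203 level, each as CPM + 1 on a log axis, with 1 point per class and sample (circles sorted brain, squares total brain) and a dotted line of equal levels. The points run along the line from choroid plexus epithelial-like cells, at 0 CPM of both genes in the total brain, past microglia-like cells to mural-like cells, with 173 CPM of Ifi203 and 202 CPM of Mndal; endothelial-like points lie below it.

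Ifi204, Ifi207 and Ifi211 were highest in monocytes and border macrophages. Among named classes of the sorted brain, monocyte-like cells had the highest value of all 3 genes. They had 184 CPM of Ifi204 (151 to 222), 78.7 CPM of Ifi207 (57.9 to 105) and 117 CPM of Ifi211 (91.4 to 148). By suffix, Ifi204 in monocyte-like cells was 232, 145, 206 and 126 CPM. Border macrophage-like cells, named for the macrophages of the meninges, choroid plexus and vessels, followed with 125, 70.0 and 44.7 CPM of the same 3 genes. Their Ifi204 was 108, 89.4, 151 and 144 CPM by suffix, which overlaps the monocyte-like range. For Ifi207 the border macrophage-like interval (51.4 to 93.1) overlaps the monocyte-like one, so their order is not resolved. Dendritic-like cells of the sorted brain had 31.7, 31.7 and 14.6 CPM of the 3 genes. In small classes of the total brain, Ifi207 was 305 CPM (220 to 413) in 25 border macrophage-like cells. It was 198 CPM (111 to 326) in 9 dendritic-like and 64.3 CPM (13.3 to 188) in 5 monocyte-like cells. Microglia, although myeloid, had little Ifi207 and Ifi211: sorted microglia-like cells had 1.71 CPM of Ifi207 (0.978 to 2.78) and 0.535 CPM of Ifi211 (0.174 to 1.25), and total ones 10.6 and 3.44 CPM. B cell-like cells had 4.00 and 4.67 CPM of these 2 genes, with a ratio over sorted microglia-like cells of 2.34 (0.750 to 6.30) for Ifi207 and 8.74 (2.39 to 34.9) for Ifi211.

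T cells had almost none of these 3 genes. T cell-like cells of the sorted brain gave 1 UMI each of Ifi204 and Ifi207 and 2 of Ifi211, against 110, 47 and 70 in monocyte-like cells. The ratio of monocyte-like over T cell-like cells for Ifi211 was 89.2 (23.8 to 751), and that for Ifi204, resting on that 1 UMI, was 280.3 (49.3 to 11172). B cell-like cells gave 11, 6 and 7 UMIs of the 3 genes. These were the 3 of 7 members at least 2-fold higher in monocyte-like than in T cell-like cells, where 17.3% of all tested genes were, and 0 were lower, where 19.2% were. The 3 were grouped by their levels in these same cells and reached the UMI minimum almost wholly through monocyte-like ones. The count therefore restates that pattern and is no separate evidence for it. Mndal had overlapping intervals, with 164 CPM in monocyte-like cells and, as given above, 177 in T cell-like ones. The 3 genes also had like patterns over the 21 points: r was 0.892 for Ifi207 with Ifi211, 0.881 for Ifi204 with Ifi211 and 0.866 for Ifi204 with Ifi207.

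Ifi209 crossed the divide. It was highest in B cell-like (131 CPM, 114 to 151) and monocyte-like cells (101 CPM, 76.7 to 129). It followed in T cell-like (66.4 CPM, 54.1 to 80.7), NK cell-like (57.1), dendritic-like (39.0) and border macrophage-like cells (23.8), each overlapping the next, whereas B cell-like and T cell-like intervals lay apart. Microglia-like cells had 5.35 CPM (3.97 to 7.05) in the sorted and 10.3 CPM (7.09 to 14.5) in the total brain. The reads of Ifi209 may be shared with Ifi214, whose own level was 26.7 CPM in B cell-like cells and 32.2 in T cell-like ones.

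Summed over the 7 genes, monocyte-like cells had the highest level in the sorted brain, 786 CPM (716 to 860). B cell-like cells had 536 CPM (499 to 574), border macrophage-like 515 (462 to 572), T cell-like 439 (406 to 474), NK cell-like 379 (297 to 476) and dendritic-like 312 (260 to 371), with overlapping neighbours. Microglia-like cells had 73.0 CPM (67.6 to 78.7), a level that neutrophil-like (64.6) and endothelial-like cells (64.3) shared within their intervals. Choroid plexus epithelial-like cells gave 1.60 CPM.

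**Figure D3:**
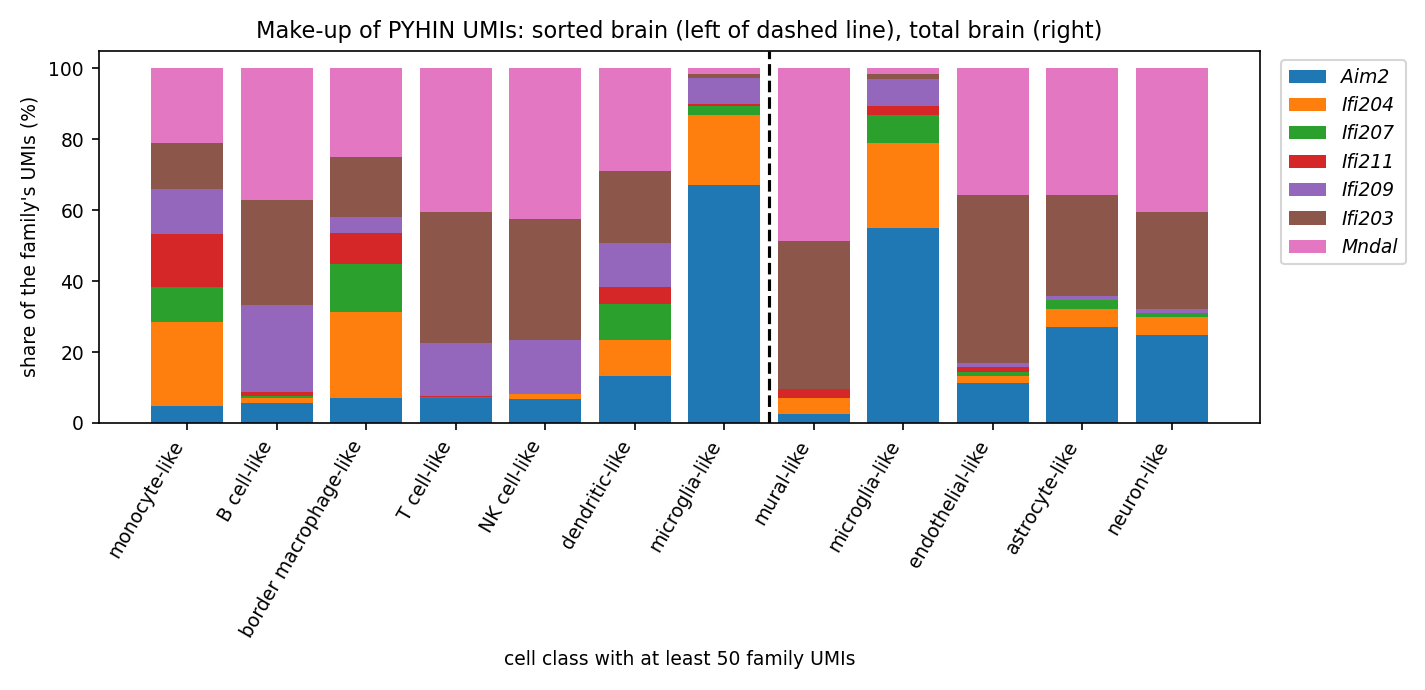
Share of the family's UMIs taken by each gene (stacked bars, %), for classes with at least 50 family UMIs, sorted brain left of the dashed line and total brain right of it. Aim2 fills 67.2% of the sorted and 55.1% of the total microglia-like bar, and Ifi203 with Mndal fill most of the T cell-like, NK cell-like, mural-like and endothelial-like bars.

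Against microglia-like cells, 6 of the 7 genes were at least 2-fold higher in monocyte-like cells, where 12.8% of the 12005 tested genes were, and 0 were lower, where 33.3% were. The exception was Aim2, with a ratio of 0.785 (0.493 to 1.19). In border macrophage-like cells 6 of 7 were likewise higher, where 7.21% of genes were, and 0 lower, where 26.8% were, and Aim2 was again the exception at 0.728 (0.462 to 1.10). In B cell-like cells 4 of 7 were higher (11.9% of genes) and 0 lower (23.9% of genes). In T cell-like cells 3 of the 6 tested were higher (13.3% of genes) and 1, Ifi204, was lower (28.8% of genes). The median log2 ratio of monocyte-like over microglia-like cells was 4.88 over the members and -0.41 over all genes. Ifi203 and Ifi211 gave 7 and 5 UMIs in microglia-like cells, so where tested they reached the UMI minimum only with the UMIs of the other class. The levels of all members in these same cells are described above. These counts and the median therefore restate those patterns and are no separate evidence for them.

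Other gene lists were counted in the same comparison, where 12.8% of all tested genes were higher and 33.3% lower. Of 24 interferon-stimulated genes, 17 of the 22 tested were higher in monocyte-like than in microglia-like cells and 1 lower. Irf7, an interferon regulatory factor, had 166 CPM in monocyte-like cells against 9.51 in microglia-like ones, and Zbp1, a nucleic acid sensor, 162 against 3.21 CPM. Of the inflammasome genes, 2 of 9 were higher and 1 lower. Il1b, the cytokine released by that pathway, had 689 CPM in monocyte-like cells against 66.7 in microglia-like ones, whereas Pycard had 345 and 469 CPM and Casp1 107 and 57.9 CPM. Of the genes around cGAS and STING, 0 of 9 were higher and 4 lower, a share near that of all genes. In T cell-like cells 7 of 8 inflammasome genes were at least 2-fold lower than in microglia-like cells, where 28.8% of genes were, and 0 higher.

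Monocyte-like cells were not uniform. A cluster of 102 sorted cells with Ccr2 and Chil3, genes of classical monocytes, among its leading genes had a family level of 982 CPM (888 to 1084). Another of 97 cells, led by Ear2, Treml4 and Cd300e, genes of patrolling monocytes, had 364 CPM (283 to 460). Ifi203 was 140.0 CPM in the first and 21.1 CPM in the other, while Aim2 was 36.8 and 42.2 CPM. Their interferon-stimulated genes summed to 1316 and 980.1 CPM, and the median depth of the clusters was 3816 and 1765 UMIs. The part of either in the difference was not tested.

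Among classes of the total brain with at least 50 cells, the highest family level was in mural cells, the pericytes and smooth muscle of the vessel wall. Mural-like cells had 415 CPM (353 to 485), against 135 (122 to 148) in microglia-like and 102 (94.2 to 111) in endothelial-like cells. Some immune classes with under 50 cells had higher levels, with intervals wholly above that of mural-like cells. These were 1097 CPM (929 to 1287) in 25 border macrophage-like, 937 CPM (751 to 1154) in 22 B cell-like and 790 CPM (673 to 921) in 30 T cell-like cells. In mural-like cells Ifi203 gave 173 CPM (134 to 221) and Mndal 202 CPM (159.7 to 253), together most of the level at 41.8% and 48.7% of the family's UMIs. By suffix, Ifi203 was 176, 188, 217 and 97.5 CPM and Mndal 97.8, 125, 249 and 195 CPM, although 2 of the suffixes held only 18 mural-like cells each. Endothelial-like cells had 48.2 CPM of Ifi203 (42.8 to 54.2) and 36.6 CPM of Mndal (31.9 to 41.9).

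Against microglia-like cells of the total brain, 3 of 7 members were higher in mural-like cells, where 34.7% of genes were, and 3 lower, where 16.7% were. One of the higher ones, Ifi211, rests on 4 mural-like and 11 microglia-like UMIs, and its ratio interval of 0.710 to 10.3 reaches below 1. Of the lower ones, Ifi207 (0 and 34 UMIs) and Ifi209 (0 and 33 UMIs) reached the UMI minimum only through microglia-like cells. Counts over so few members only describe those tested. In endothelial-like cells 2 were higher, where 24.2% of genes were, and 4 lower, where 13.7% were. The higher ones included Ifi203 and Mndal in both classes, and the lower ones Aim2, with ratios of 0.141 (0.0382 to 0.367) in mural-like and 0.156 (0.117 to 0.205) in endothelial-like cells. Mural-like over endothelial-like cells gave ratios of 3.60 (2.71 to 4.72) for Ifi203, 5.52 (4.2 to 7.20) for Mndal and 0.907 (0.240 to 2.43) for Aim2. Of the 5 members tested, 4 were at least 2-fold higher in mural-like cells, where 25.4% of genes were, and 0 were lower. The interferon-stimulated genes ran the other way: 20 of 22 were lower in mural-like cells, where 15.8% of genes were, and their sum was 275.9 CPM in mural-like cells against 1607 CPM in endothelial-like ones. T cell markers summed to 7.88 CPM in mural-like cells, with 6 of 7 at 0, and border macrophage markers to 28.9 CPM, with 3 of 7 at 0. Endothelial markers summed to 1290.1 CPM there, against 17332 CPM in endothelial-like cells. Ifi207 and Ifi209 had 0 UMIs in mural-like cells, which allows up to 7.88 CPM.

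Other brain cells had little of the family. Astrocyte-like cells had 30.9 CPM (24.6 to 38.5), fibroblast-like 23.9, neuron-like 21.01 (18.4 to 23.9), oligodendrocyte-like 18.1 and oligodendrocyte precursor-like 11.1, with overlapping neighbours. Choroid plexus epithelial-like cells had 0.288 CPM, from 1 UMI. In neuron-like cells the level was mostly Mndal (8.5 CPM), Ifi203 (5.76) and Aim2 (5.21), and 2 other genes were near 0, with 1.10 CPM of Ifi204 and 0.183 CPM of Ifi207. Endothelial-like over neuron-like cells gave ratios of 8.38 (6.36 to 11.2) for Ifi203, 4.31 (3.37 to 5.56) for Mndal and 2.22 (1.54 to 3.22) for Aim2, so that 3 of 5 members tested were higher, where 19.2% of genes were, and 0 lower, where 39.8% were.

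Between the samples, microglia-like cells gave at least 10 UMIs of every member. The family stood at 73.0 CPM in sorted and 135 CPM in total microglia-like cells, a ratio of 0.541 (0.479 to 0.612) and a log2 ratio of -0.88. Aim2 had a ratio of 0.660 (0.563 to 0.775). At least 2-fold lower in the sorted brain were 3 of the 7 genes, Ifi204, Ifi207 and Ifi211, where 24.4% of all tested genes were, and 0 were higher, where 4.05% were. The median log2 ratio of all genes was -0.20, and that of the members -0.83. The samples differ at once in sorting, sex, ages, depth per cell and Cell Ranger version, and these cannot be told apart. Chemistry may differ as well, since the labels name v3 but the protocol names v2 and v3 depending on the run. Pairs of suffixes shared 46 barcodes in all within the sorted brain and 8 within the total brain, against 0 between the samples. Whether the chemistry differed was not tested. Endothelial-like cells had 64.3 CPM of the family in the sorted and 102 CPM in the total brain, a ratio of 0.629 (0.323 to 1.11) from 12 sorted UMIs. Of the 4 members tested there, 2 were lower, where 41.3% of genes were, and 0 higher, where 9.47% were. The lower ones were Ifi204 (0 sorted and 12 total UMIs) and Mndal (3 and 215 UMIs). Ifi204 reached the UMI minimum only through the total brain. The ratio intervals, 0 to 11.3 for Ifi204 and 0.0898 to 1.30 for Mndal, both reach above 1, so no difference is resolved.

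The Ifi204 difference rested on 1 suffix. Sorted microglia-like cells had Ifi204 at 11.4, 7.46, 28.7 and 34.9 CPM by suffix, and total ones at 15.6, 124, 17.6 and 6.56 CPM. Suffix 2 of the total brain gave 68 of its 103 UMIs of Ifi204 and 21 of 34 of Ifi207. Without it, Ifi204 was 14.4 CPM in sorted and 13.2 CPM in total microglia-like cells, a ratio of 1.09 (0.750 to 1.64). Then 1 of the 6 members tested, Ifi207, was at least 2-fold lower, where 24.8% of genes were, and 0 were higher, where 4.39% were. The family ratio became 0.673 (0.586 to 0.775) and that of Aim2 0.639 (0.540 to 0.757).

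The 24 interferon-stimulated genes were also highest in that suffix. They summed to 273, 210.5, 416 and 463 CPM over the suffixes of the sorted brain and to 217, 1099, 444 and 258 CPM over those of the total brain. Ifi204 was highest where this sum was highest within each sample, and Aim2 was not: it had 62.1 CPM in suffix 2 of the total brain. Ifi209 there was 23.8 CPM, against 4.37 to 9.29 CPM in the other 3 suffixes, and Ifi211 14.6 CPM, against 0 to 3.89. Ifi203 and Mndal gave 0 UMIs in it.

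**Figure D4:**
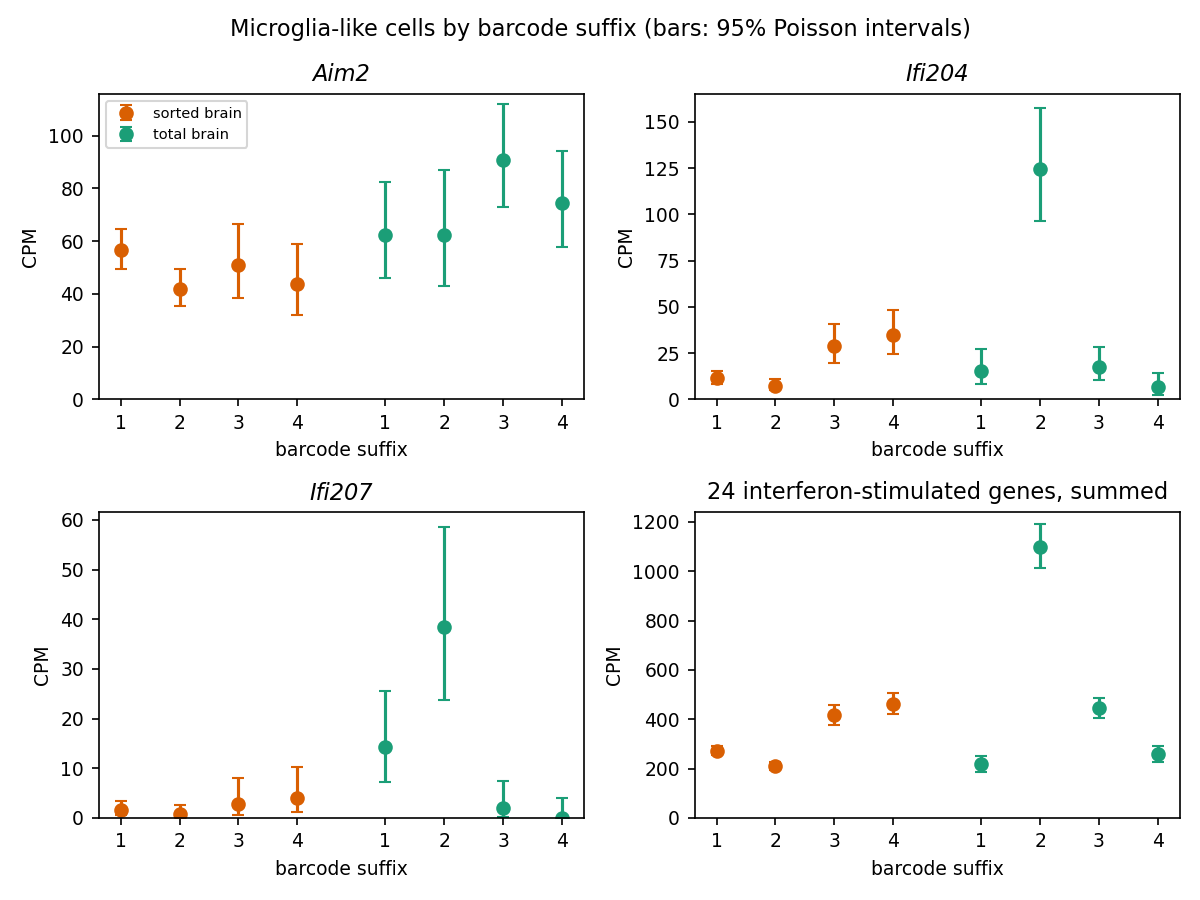
Levels (CPM) of Aim2, Ifi204, Ifi207 and the sum of 24 interferon-stimulated genes in microglia-like cells of each barcode suffix, sorted brain left and total brain right in each panel, with 95% Poisson intervals as bars. Suffix 2 of the total brain stands apart for Ifi204 (124 CPM), Ifi207 (38.4 CPM) and the interferon-stimulated sum (1099 CPM) but not for Aim2 (62.1 CPM).

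The same split appeared between single cells of the sorted brain. Microglia-like cells were thinned to 1000 UMIs each, which left out 246 shallower cells, and divided by their UMIs of the 24 interferon-stimulated genes: 180 cells had 2 or more, 627 had 1 and 3367 had 0. The family was 289 CPM (216 to 379) in cells with 2 or more and 63.3 CPM (55.1 to 72.4) in cells with 0, a ratio of 4.57 (3.31 to 6.21). Ifi204 was 172 CPM (117 to 244) in cells with 2 or more and 9.80 CPM (6.75 to 13.8) in cells with 0, a ratio of 17.6 (10.4 to 29.6). Ifi209 was 33.3 CPM (12.2 to 72.6) and 2.38 CPM (1.03 to 4.68), a ratio of 14.0 (4.01 to 46.1). Aim2 was 38.9 CPM (15.6 to 80.1) and 47.8 CPM (40.7 to 55.8), a ratio of 0.813 (0.322 to 1.71). Ifi204 in cells with 1 such UMI was 11.2 CPM, within the interval of cells with 0, so the difference lies in the cells with 2 or more.

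Of the 3 members with enough UMIs, 2 were at least 2-fold higher in cells with 2 or more, where 7.37% of all tested genes were, and 0 were lower, where 17.4% were. By suffix, Ifi204 gave 5, 7, 12 and 7 UMIs in the 64, 22, 40 and 54 cells with 2 or more, and 15, 6, 1 and 11 UMIs in the 1279, 1201, 441 and 446 cells with 0, so that its level was higher in each of the 4 suffixes. Ifi203 gave 0 UMIs and Mndal 1 in the 180 cells. Over 5 other random draws of the thinning, the Ifi204 ratio was between 11.9 and 17.9 and the Aim2 ratio between 0.554 and 1.28. Markers of border macrophages summed to 16.7 CPM in the 180 cells and 11.6 CPM in the cells with 0, markers of monocytes to 44.4 and 22.3 CPM, and markers of microglia to 31150.0 and 35020 CPM. The result leans on few cells: 43 of the 180, which held 22 of their 31 Ifi204 UMIs, were not named microglia-like when the sorted brain was clustered alone, 38 of them left unnamed. Without these 43 cells the Ifi204 ratio was 6.67 (2.81 to 14.2), that of the family 2.19 (1.29 to 3.51) and the Aim2 ratio 1.06 (0.421 to 2.24). The Ifi209 ratio was then 6.11 (0.633 to 30.6), an interval that reaches below 1, since 4 of its 6 UMIs lay in these cells, as did all 4 UMIs of Ifi207 and all 3 of Ifi211. With a filter of 1000 genes and 5% mitochondrial UMIs the family ratio was 1.83 (0.658 to 4.11).

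**Figure D5:**
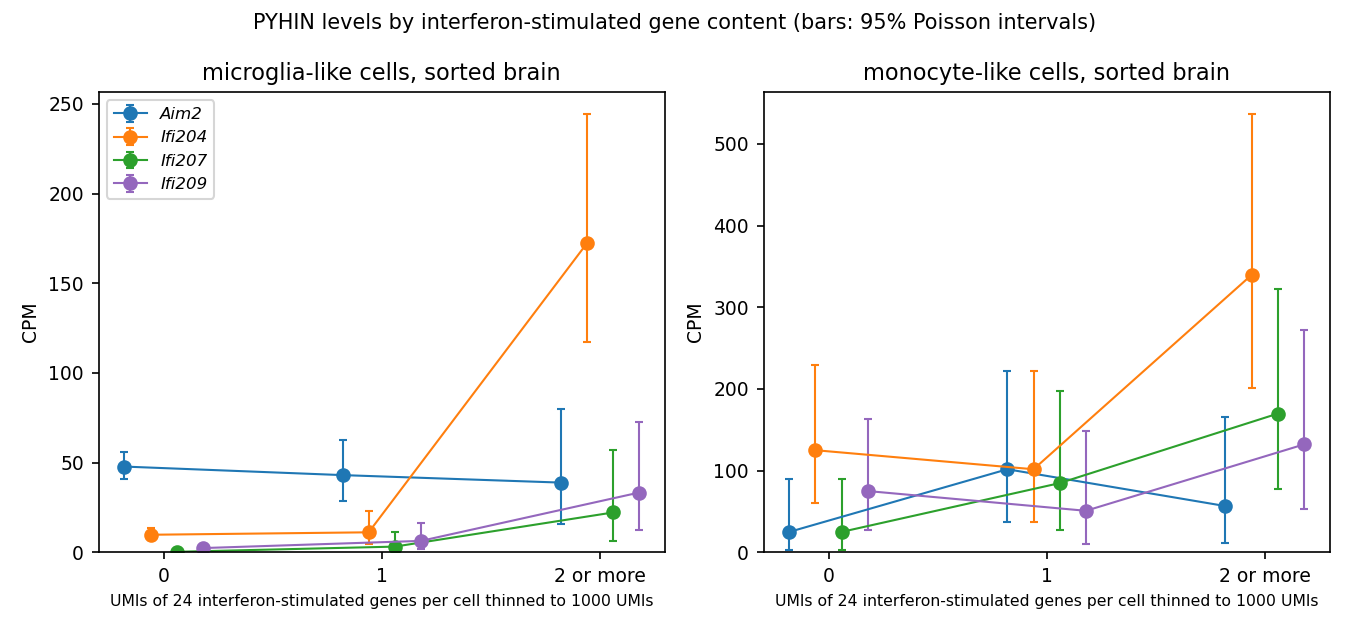
Levels (CPM, 95% Poisson intervals) of Aim2, Ifi204, Ifi207 and Ifi209 in microglia-like (left) and monocyte-like (right) cells of the sorted brain, by the UMIs of 24 interferon-stimulated genes in each cell after thinning to 1000 UMIs. In microglia-like cells Ifi204 stands at 172 CPM with 2 or more such UMIs and 9.80 CPM with 0, while Aim2 stands at 38.9 and 47.8 CPM.

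The same division by interferon-stimulated UMIs was made in other classes, and differences between classes were not tested. In monocyte-like cells 4 of 6 members tested were at least 2-fold higher with 2 or more such UMIs than with 0, where 7.40% of genes were, and 0 were lower, where 9.31% were, with 339.6 and 125 CPM of Ifi204 and 245 and 37.5 CPM of Ifi211. The fourth of these, Ifi203, rests on 8 and 3 UMIs, and its ratio interval of 0.966 to 23.6 reaches below 1. In border macrophage-like cells Ifi204 gave 26 UMIs in 65 cells with 2 or more and 7 UMIs in 133 cells with 0, a ratio of 7.60 (3.21 to 20.7), and 4 of 5 members tested were higher, where 9.85% of genes were, and 0 lower, where 10.7% were. The ratios of the other 3, Ifi203, Mndal and Ifi211, had intervals that reach below 1. In T cell-like cells it was Mndal, with 354 and 148 CPM, and Ifi203, with 236 and 114 CPM, 2 of 4 tested, where 8.16% of genes were higher, and 0 were lower, where 8.4% were. In B cell-like cells 1 of 4 was higher, Ifi209, where 7.55% of genes were, and 0 lower, where 14.4% were. Ifi203 and Mndal stayed under 2-fold there, with 333 and 171 CPM of Ifi203, a ratio of 1.95 (1.22 to 3.03), and 367 and 218 CPM of Mndal, a ratio of 1.68 (1.09 to 2.53). These intervals lie above 1 and overlap those of T cell-like cells, 2.06 (1.23 to 3.47) for Ifi203 and 2.40 (1.56 to 3.73) for Mndal. In endothelial-like cells of the total brain Ifi203 was 105 CPM (69.0 to 152) and 20.5 CPM (5.59 to 52.5), and 2 of 2 tested were higher, where 5.84% of genes were, and 0 lower, where 6.36% were. The interval of the Mndal ratio there reaches below 1. Only Ifi203 (27 and 4 UMIs) and Mndal (14 and 5 UMIs) reached the minimum of 10 UMIs in endothelial-like cells, mostly through cells with 2 or more. Ifi207 in monocyte-like cells (9 and 2 UMIs) passed in the same way. Counts over so few members only describe those tested. Some of these groups hold few cells, from 53 in the monocyte-like and 65 in the border macrophage-like cells with 2 or more.

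For each member, the 3 genes with the most similar pattern over the 21 points were found among genes of at least 20 CPM in 1 point. Aim2 was nearest to Il10ra (r = 0.915), the interleukin-10 receptor, and to Nfkbid (0.913) and Dock8 (0.911). Ifi204 was nearest to Csf2rb (0.919), Fcgr4 (0.918) and Nfam1 (0.917), and Ifi207 to Lyz1 (0.935), Clec4a1 (0.931) and Sirpb1a (0.908). Ifi211 was nearest to Sirpb1c (0.897), Lyz1 (0.886) and Fcgr4 (0.874). Ifi203 and Mndal shared their nearest genes, Crip1 (0.912 and 0.905), the integrin Itga4 (0.868 and 0.909) and Adgre5 (0.856 and 0.849). Ifi209 was nearest to BC147527 (0.954), Ripk3 (0.942), a kinase of necroptosis, and Phf11b (0.919).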

How the data were processed

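Single-cell RNA sequencing of 2 pooled mouse brain samples, 1 per group, was analysed. The authors deposited raw UMI counts per gene and barcode, with cells already called; per the file headers Cell Ranger was 3.0.2 (sorted) and 3.1.0 (total), and per the submitters' processing notes 3.0.2 on mm10. The labels name 10x chemistry v3, and the protocol names v2 and v3 depending on the run. The annotation release was not given in the sources used here.

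Cells needed 500 genes or more, with no more than 10% of UMIs mitochondrial, which retained 74.6% of sorted and 63.8% of total barcodes. Both samples were clustered together (scanpy 1.11.5; 2000 variable genes without PYHIN genes, 30 components, 15 neighbours, Leiden resolution 1), and clusters with a second class were divided at resolution 0.5. A cluster was named when at least 50% and at least 3 of a class's markers were raised 2-fold, which gave 19 named classes from 65 clusters and 20 marker lists. One microglia-like cluster was led by mast cell genes and another by Ccl4, Ccl3 and Tnf. Scrublet called 0.844% of sorted and 0.0747% of total cells doublets. The total brain share is too small for the caller to have worked there, and doublets were kept.

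Levels are summed UMIs per 1000000 with exact Poisson intervals, shares have Clopper-Pearson intervals, and ratios have exact binomial intervals, all at 95%. PCR and droplet sampling beyond counting are not covered. Log2 ratios add 1 CPM. Genes needed 10 UMIs over the 2 groups compared, and a gene was counted as higher or lower from 2-fold. A count of 0 was bounded with 3 counts per class. Ratios and thinning were tested on simulated data. All members were described in every class; of other lists, counts and at most 4 examples by level. The members and gene lists were chosen with earlier results of these data known. The comparison of samples without suffix 2 of the total brain and the repeated thinning were chosen after seeing the data.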

Additional observations from a re-analysis of the deposited data

How the results depend on the processing

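With 1 pooled sample per group, intervals cover counting error and not animals. Classes with under 50 cells in a sample, such as monocyte-like cells of the total brain, were left out of the ratios and class rankings. No paired analysis was possible because each group is 1 sample and no result comes from a test. Over 76 combinations of a result and an alternative other than leaving out a suffix, 61 stayed within the 95% interval of the value given; the 3 results that are ratios kept their direction, the other 4 are levels and have none, and the causes of the moves were not tested. With the stricter filter the family level was 66.0 CPM in sorted and 106 CPM in total microglia-like cells and 907 CPM in monocyte-like cells, the log2 ratio of sorted over total microglia-like cells was -0.67, and the ratio of the family in sorted microglia-like cells with 2 or more over 0 interferon-stimulated UMIs was 1.83, against 4.57. That ratio was 2.18 with each sample clustered alone, where the sorted microglia-like level was 66.9 CPM, and 3.48 to 4.22 in 5 other draws. Without mitochondrial and ribosomal protein genes, whose removal raises all levels, the family was 82.6 CPM in sorted and 157 CPM in total microglia-like, 1005 CPM in monocyte-like, and in border macrophage-like cells 634 CPM. Equal weight per suffix gave 81.0 CPM in sorted microglia-like cells, the looser filter 574 CPM in border macrophage-like cells, and thinning 708 CPM in monocyte-like cells, against 574 in border macrophage-like ones. Leaving out each suffix in turn gave 69.7 to 83.9 CPM in sorted and 108 to 153 CPM in total microglia-like cells, 727 to 832 CPM in monocyte-like cells, and in border macrophage-like ones 490.1 to 534 CPM. It gave log2 ratios of -1.06 to -0.56 for the family and -0.74 to -0.45 for Aim2, and 3.69 to 6.11 for the ratio by interferon-stimulated UMIs.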

Other observations

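PYHIN genes outside the 7 were also counted, 6 of them with a row. In the sorted brain, Ifi206 was highest in T cell-like cells (96.0 CPM) and stood at 46.2 CPM in border macrophage-like cells. Ifi213 had 49.3 CPM and Ifi208 46.0 CPM in T cell-like cells. Ifi205 had 41.4 CPM in dendritic-like and 40.2 CPM in monocyte-like cells. Ifi202b gave 0 UMIs in every class with at least 50 cells.

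An unnamed cluster of 20 sorted cells, led by class II genes together with Cxcl10, Ifit3 and Irf7, had the highest levels of the family. Its family level was 2229.7 CPM (1884 to 2621), with 607 CPM of Ifi204 (433 to 826) and 60.7 CPM of Aim2 (16.5 to 155), and its 24 interferon-stimulated genes summed to 10132 CPM. It held markers of border macrophages and dendritic cells at once, and its leading genes held more markers of monocytes than of border macrophages, so it was not named.

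Neuroblast-like cells, 33 in the sorted and 16 in the total brain, had Aim2 at 65.8 CPM (21.4 to 153) from 5 UMIs and 29.1 CPM (7.93 to 74.5) from 4 UMIs, and 0 UMIs of the other 6 members. The 4 UMIs of the total brain came from 1 cell.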
